A study of Mus musculus with 4 samples.

Results

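The nuclear-encoded genes of oxidative phosphorylation were followed through 4 single-cell libraries of cells sorted from mouse ankle synovium. They were chosen by symbol: each gene whose name begins with Nduf followed by a, b, c, s or v, or with Uqcr, Cox4i, Cox5, Cox6, Cox7, Cox8, Atp5, Sdh or Cycs. A gene also needed at least 100 UMIs (unique molecular identifiers, each standing for 1 captured RNA molecule) over all libraries. Of 32285 genes, 99 matched by symbol and 95 reached the minimum. These 95 hold 82 structural subunits and 13 assembly factors, since Ndufaf and Sdhaf symbols begin with the same letters. Cox7a2l, a factor of respiratory supercomplexes, was counted with the assembly factors. Cox6a2, with 151 UMIs, lay just inside the minimum, and Cox4i2, with 96, just outside it. Cox7b2, Cox8b and Cox8c also fell short.

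The mice were bone marrow chimeras in which CD45.1 B6 marrow had been given to CD45.2 B6 recipients whose ankles were shielded from the radiation. Arthritis (STIA, serum-induced arthritis) followed an injection of K/BxN mouse serum, whose autoantibodies cause joint inflammation. Baseline cells came on day 0 from mice without arthritis, peak cells on day 7, plateau cells on day 14 and resolution cells on day 56 after serum, with 1 library per stage. Live CD45+ CD11b+ cells were sorted, without CD64, Ly6C, MHC class II, CD177, Ly6G or SiglecF on their surface. The 3 arthritis titles carry an unexplained "Clo-lip" tag that the baseline title lacks, and its effect cannot be told apart from that of stage. How many mice stood behind a library, and their age, are not given in the sources used here.

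Oxidative phosphorylation takes place in the inner mitochondrial membrane. Complex I and complex II pass electrons to ubiquinone, complex III passes them on to cytochrome c, complex IV reduces oxygen, and complex V (ATP synthase) makes ATP from the proton gradient that complexes I, III and IV build. Most subunits are encoded in the nucleus, and a small set is encoded in mitochondrial DNA. Osteoclasts, the bone-resorbing cells that synovial and marrow precursors of the myeloid lineage can form, are known for being rich in mitochondria and for pumping acid with a vacuolar ATPase.

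The deposited libraries held 12015315 to 59816482 gene UMIs. A minimum of 300 genes per barcode and a limit of 10% mitochondrial UMIs left 1071 at baseline, 5941 at peak, 2828 at plateau and 4611 at resolution (14451 in all). A barcode was placed in the high range when Acp5 and Ctsk, which encode the osteoclast enzymes tartrate-resistant acid phosphatase and cathepsin K, made up at least 2% of its gene UMIs. This range held no baseline barcode, where 0 of 1071 allows up to 0.280% by a limit of 3 counts, or 0.344% as the upper bound of the exact interval. It held 178 peak barcodes (3.00%, exact binomial 95% interval 2.58 to 3.46), 443 plateau barcodes (15.7%, interval 14.3 to 17.1) and 21 resolution barcodes (0.455%, interval 0.282 to 0.695). These intervals, like all others here, cover counting error alone. The range is a cut on a continuous share: 58, 131 and 13 barcodes lay between 1% and 2%, and 98, 250 and 15 between 2% and 4%. Of the other 8 osteoclast markers listed, 7 (Mmp9, Atp6v0d2, Ocstamp, Dcstamp, Itgb3, Oscar and Nfatc1) were higher in the high range at an adjusted p under 0.05 by edgeR's quasi-likelihood test, with log2 differences from 2.41 for Nfatc1 to 6.52 for Oscar. Calcr had too few UMIs to be tested. Ptprc and Itgam, which encode the sorted antigens CD45 and CD11b, were lower there by the same test, with log2 differences of -1.99 and -2.11.

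The share of a barcode's gene UMIs that came from the 95 genes, called the score here, was similar at all stages outside the high range and more than 2-fold greater inside it. Outside the range, the pooled score was 2.48% at baseline, 2.56% at peak, 2.52% at plateau and 2.48% at resolution. Inside it the score was 6.92% at peak, 6.40% at plateau and 5.42% at resolution. The 3 high values lay above the 4 others with no overlap, and within each library the ratio of high range to rest was between 2.18 and 2.70. The mean difference was 3.72 percentage points (SD 0.724, n = 3 libraries). An exact two-sided sign-flip permutation test over the 3 libraries gave p = 0.25, the smallest p that 3 libraries allow. Barcodes outside the high range were not uniform. Those under 0.1% Acp5+Ctsk had a pooled score of 2.14% at plateau, against 2.47% at baseline, 2.47% at peak and 2.46% at resolution. The 131 plateau barcodes between 1% and 2%, which count as outside the range, had 5.41%.

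Barcode by barcode, the ranges overlapped little. The median score in the high range was 6.83% at peak (quartiles 5.96 and 7.58), 5.80% at plateau (4.69 and 6.94) and 4.86% at resolution (4.25 and 6.51). In the remaining barcodes it was 2.45%, 2.17% and 2.34%, and at baseline 2.44%. Of the high-range barcodes, 177 of 178, 425 of 443 and 18 of 21 scored above the 90th percentile of the rest of their library. Conversely, 10, 28 and 11 barcodes of the rest scored above the median of the high range.

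**Figure D1:**
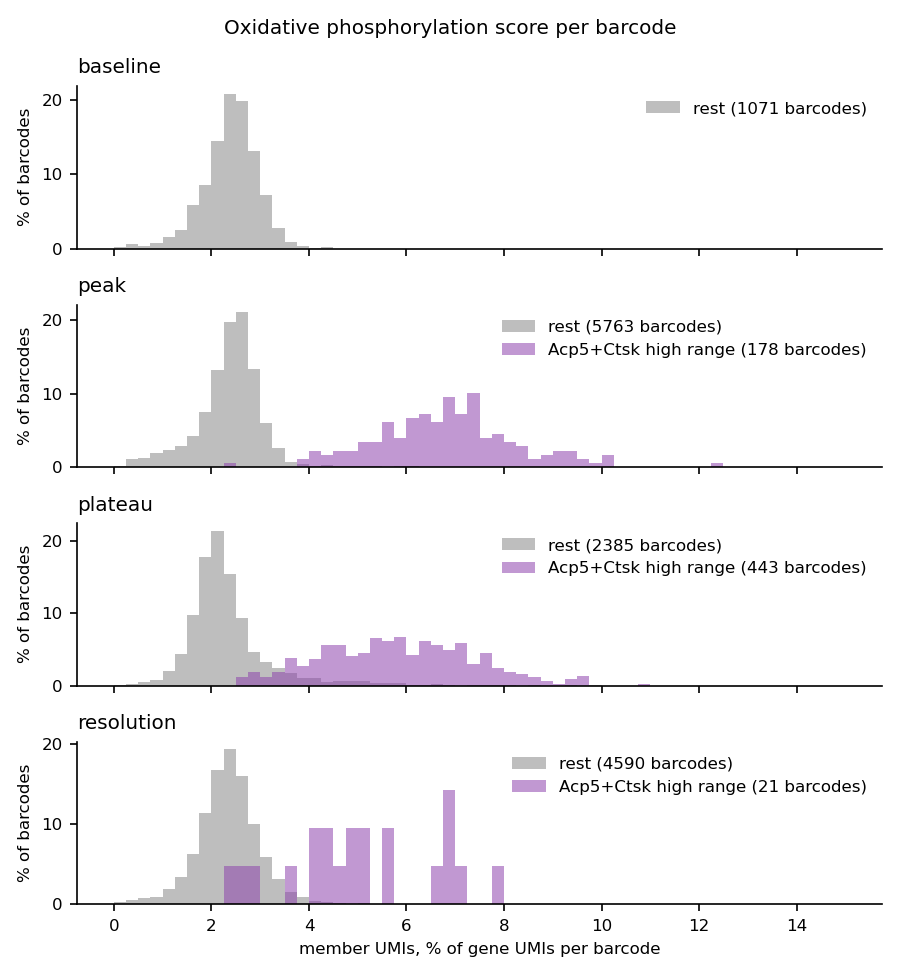
Histograms of the score (UMIs of the 95 genes as a percentage of gene UMIs, x axis) over barcodes, as a percentage of the barcodes of each range (y axis), with 1 panel per library. Grey bars are barcodes outside the Acp5+Ctsk high range and purple bars those inside it; grey peaks between 2% and 3% in every library, while the purple medians are 6.83% at peak, 5.80% at plateau and 4.86% at resolution.

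The score was already greater in barcodes just below the 2% line. At peak the median was 2.45% in barcodes under 0.1% Acp5+Ctsk, 1.97% between 0.1% and 0.5%, 3.87% between 0.5% and 1%, 5.17% between 1% and 2%, and 6.54% between 2% and 4%. At plateau the same bins gave 2.12%, 2.24%, 3.81%, 4.63% and 5.33%. At resolution they gave 2.35%, 2.21%, 2.53%, 5.21% and 4.39%, the last 2 over 13 and 15 barcodes. Below 0.5% the score was thus at the level of the other barcodes in each library. From 0.5% to 4% it was greater in each successive bin at peak and plateau. At resolution the bins from 1% to 2% and from 2% to 4%, each of under 20 barcodes, stood in reversed order. Between 4% and 8% the medians were 7.08%, 6.49% and 5.42% at peak, plateau and resolution (77, 166 and 6 barcodes). At 8% or more they were 8.22% at peak (3 barcodes) and 5.61% at plateau (27 barcodes), so at plateau the highest bin stood below the bin before it.

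High-range barcodes were deeper and had more mitochondrial UMIs. Their median depth was 29199 gene UMIs at peak, 24440 at plateau and 15815 at resolution, against 8169, 6452 and 4893 in the rest, and their median mitochondrial share was 3.13%, 3.75% and 3.21% against 1.51%, 1.92% and 1.34%. Compared at like depth, the pooled score was still greater in the high range. Between 20000 and 40000 UMIs it was 6.73% against 2.81% at peak, 6.29% against 3.11% at plateau and 6.32% against 2.95% at resolution (90, 183 and 6 high-range barcodes). Between 10000 and 20000 UMIs it was 6.56% against 2.56%, 6.27% against 2.52% and 4.86% against 2.62% (26, 44 and 10). Between 5000 and 10000 UMIs it was 6.49% against 2.52%, 7.25% against 2.20% and 4.17% against 2.47% (9, 13 and 5). At resolution the high-range score was thus lower in the less deep bins. The part of the mitochondrial share in the difference was not tested. At plateau, 125 of the 443 high-range barcodes had under 5000 UMIs, with a median depth of 691 and a median score of 4.25%. At peak 17 and at plateau 36 barcodes with at least 2% Acp5+Ctsk were removed, all by the mitochondrial limit. Without that limit the high range held 195 and 479 barcodes, and without the gene minimum it stayed at 178 and 443.

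**Figure D2:**
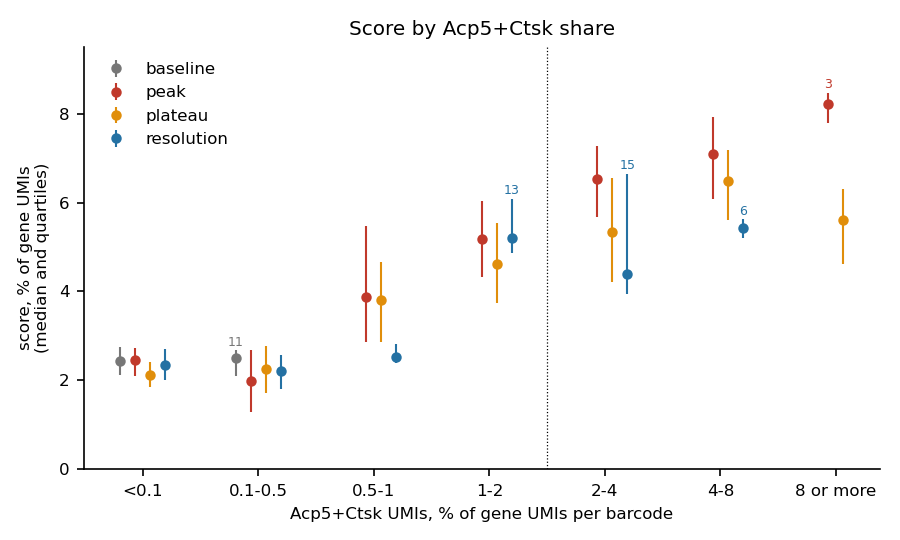
Score (y axis, % of gene UMIs; points are medians over barcodes and lines run from the lower to the upper quartile) by the Acp5+Ctsk share of the barcode (x axis, in bins of % of gene UMIs) and library. The dotted line is the 2% limit of the high range and small numbers mark bins of under 20 barcodes; the medians at peak go from 2.45% in the lowest bin to 6.54% between 2% and 4%. One baseline barcode between 0.5% and 1% is not drawn.

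Gene by gene, nearly all of the 95 were higher in the high range. UMIs were summed over the high range and over the rest of each of the 3 libraries and compared with edgeR's quasi-likelihood test with the library as a block, and p-values were Benjamini-Hochberg adjusted over 12419 genes. Of the 95, 86 were called higher and 4 lower at an adjusted p under 0.05, and 5 were not called. Over the 12417 genes tested, without Acp5 and Ctsk, 17.6% were called higher and 33.5% lower. The median log2 difference of the 95 was 1.23 (2.34-fold), beside -0.23 over all genes. By direction alone, 91 of the 95 were higher in 3 of 3 libraries and 4 lower in 3 of 3, against 29.2% and 35.1% of all genes. Per library the median fold of the genes called higher was 2.91 at peak, 2.53 at plateau and 2.20 at resolution. Of all 95 genes, called or not, 84 had counting intervals above 1 in all 3 libraries. Among the genes called higher, the intervals of Cox7a1, Ndufaf1, Ndufv3, Sdhaf1 and Sdhaf3 reached below 1 at resolution. In the edgeR fit 63 of the 86 were over 2-fold and 19 over 3-fold.

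**Figure D3:**
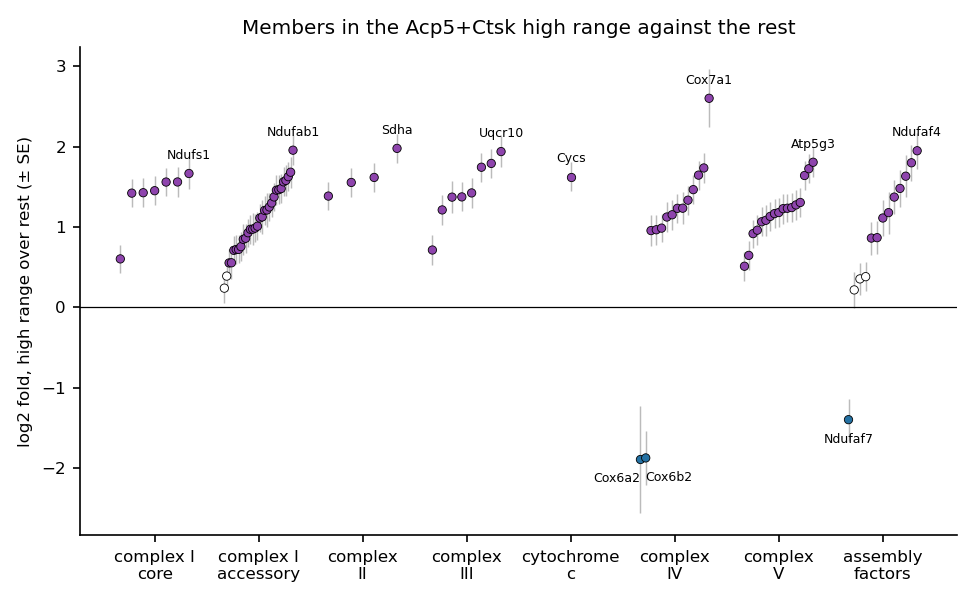
Log2 difference between the high range and the rest (y axis, edgeR estimate ± standard error over 3 libraries) for 94 of the 95 genes, grouped by complex and sorted within each group. Purple points were called higher, blue points lower and white points neither, at an adjusted p under 0.05; Ndufa4l2, with 0 UMIs in the high range, is not drawn. Most points lie between 0.5 and 2, and 3 lie below 0.

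Complex I feeds electrons from NADH into the chain. All 7 of its core subunits, which carry the flavin and the iron-sulfur clusters, were called higher (median log2 1.45), as were 28 of 30 accessory subunits (median 1.06). Ndufs1, the largest iron-sulfur subunit, had 115, 149 and 83.4 CPM (counts per 1000000 gene UMIs) in the high range at peak, plateau and resolution. In the rest it had 28.3, 44.1 and 32.4, and at baseline 28.9. All 3 high values lay above all 4 others, and the log2 difference was 1.66 (SE 0.193, edgeR adjusted p = 8.38e-06). Ndufs7, another iron-sulfur subunit, had 604, 626 and 512 CPM in the high range against 157, 219 and 182 in the rest, with no overlap (log2 1.56). Ndufs8 showed the least difference of the core subunits, with 231, 263 and 164 CPM against 139, 156 and 109 (log2 0.60, edgeR adjusted p = 0.012). It was not called without the library block (adjusted p 0.11), without the plateau library (0.20) or between 5000 and 20000 UMIs (0.10).

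Among the accessory subunits Ndufab1, the mitochondrial acyl carrier protein, stood highest in fold. It had 741, 782 and 497 CPM in the high range, against 139, 220.3 and 133 in the rest and 107 at baseline, so that the lowest high value was over 2-fold above the highest other value. Its log2 difference was 1.95 (SE 0.185, edgeR adjusted p = 1.22e-06). Ndufb8, a membrane-arm subunit, had 1174, 1201 and 965 CPM against 421, 487 and 365 (log2 1.30). The 2 accessory genes not called were Ndufa7, at 492, 397 and 471 CPM against 331, 257 and 399, and Ndufb1-ps, at 456, 386 and 611 against 398, 291 and 461. Both were higher in each library, by log2 0.39 and 0.24, but their adjusted p was 0.092 and 0.29 by edgeR.

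Complex II, the only complex shared with the citric acid cycle, had the largest median difference of the multi-gene groups (log2 1.58), with 4 of 4 subunits called higher. Sdha, its flavoprotein that oxidises succinate, had 278, 370.0 and 220.4 CPM in the high range. In the rest it had 54.2, 95.3 and 60.0, and at baseline 52.4. The high values were separate from the rest, by 5.14-fold at peak, 3.88-fold at plateau and 3.67-fold at resolution (log2 1.98, SE 0.183, edgeR adjusted p = 1.02e-06). Sdhb, its iron-sulfur subunit, had 765, 883 and 643 CPM against 213, 281 and 206 (log2 1.62), and the membrane anchors Sdhc and Sdhd had log2 differences of 1.55 and 1.38.

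All 8 complex III genes were called higher (median log2 1.40). Uqcr10, a small subunit of that complex, had 1396, 1017 and 932 CPM in the high range against 263, 246 and 301 in the rest. The high value was greatest at peak and least at resolution, the rest lay near the baseline value of 256, and the ranges did not overlap (log2 1.94, SE 0.196, edgeR adjusted p = 2.36e-06). Uqcrh, the hinge protein that binds near cytochrome c1, moved least of the group, at 1346, 1185 and 906 CPM against 743, 607 and 597. Its baseline value of 794 CPM lay close to its high-range value at resolution (log2 0.71, edgeR adjusted p = 0.0053; 0.083 without the library block and 0.16 without the plateau library). Cycs, the somatic cytochrome c that carries electrons to complex IV, had 944, 952 and 721 CPM against 241, 301 and 251, and 248 at baseline, with no overlap (log2 1.62).

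Complex IV held both the largest rise and 3 of the 4 falls. Of 15 genes counted with it, including Ndufa4 and Ndufa4l2, 12 were called higher and 3 lower (median log2 1.15). Cox4i1, the broadly used form of its regulatory subunit IV, had 3740.1, 4092 and 2213 CPM in the high range against 1281, 1446 and 1155 in the rest, and 1211 at baseline (log2 1.23, edgeR adjusted p = 0.00014). Cox5a, which binds next to subunit IV, had 2169, 2380.5 and 1406 CPM against 552, 766 and 459, again without overlap (log2 1.64). Cox5b, a zinc-binding subunit, had 1694, 1365 and 1558 CPM against 613, 520.0 and 577 (log2 1.33). Cox8a, the broadly used form of subunit VIII, had 2530.4, 1943 and 2213 CPM against 969, 762 and 929 (log2 1.23).

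Of the isoform pairs of complex IV, both forms of subunit VIIa were called higher, while subunits VIa and VIb each had 1 form called higher and 1 lower. Cox7a1, the form of subunit VIIa known from heart and skeletal muscle, had 47.2, 27.3 and 29.8 CPM in the high range and 3.28, 5.14 and 14.2 in the rest, with 3.51 at baseline. The ratio was 14.4 at peak, 5.31 at plateau and 2.10 at resolution, where the high range held 10 UMIs, and the groups did not overlap (log2 2.60, SE 0.362, edgeR adjusted p = 4.56e-05). Its widely expressed partner Cox7a2 had 1352, 1037 and 1174 CPM against 404, 379 and 418 (log2 1.46). For subunits VIa and VIb the tissue-restricted forms went the other way. Cox6b2, known as the testis form, had 2.81, 1.74 and 2.98 CPM in the high range (15, 18 and 1 UMIs) against 9.89, 5.66 and 11.96 in the rest and 16.2 at baseline, which is lower in each library and below every other value (log2 -1.87, SE 0.337, edgeR adjusted p = 0.00039). The counting interval of its ratio at resolution, 0.006 to 1.40, included 1. Between 5000 and 20000 UMIs the call was lost (edgeR adjusted p = 0.061). Its counterpart Cox6b1 had 1463, 1054 and 1206 CPM against 644, 508 and 599 (log2 0.99).

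Cox6a2, the heart and muscle form of subunit VIa, was called lower on 5 UMIs in the high range, with 0.375, 0.290 and 0 CPM against 0.918, 1.25 and 1.72 (log2 -1.89, edgeR adjusted p = 0.029). That call was lost in each leave-one-library-out fit (edgeR adjusted p 0.085 to 0.28) and with DESeq2 (adjusted p 0.31), and the highest adjusted p over its alternatives was 0.45. Cox6a1, the general form, had 770, 773 and 494 CPM against 311, 327 and 333 (log2 0.95). Ndufa4, a protein first assigned to complex I and now counted with complex IV, had 2071, 1914 and 1335 CPM against 575, 553 and 369 (log2 1.73). Ndufa4l2, its hypoxia-inducible relative, had 0 UMIs in the high range of all 3 libraries and 10.1, 9.03 and 20.6 CPM in the rest. Against 3 counts per library, that is at least 18.03-fold lower at peak, 31.1-fold at plateau and 2.31-fold at resolution.

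Complex V rose as a whole, with 17 of 17 genes called higher (median log2 1.18). Atp5b, the catalytic beta subunit, had 1236, 1297 and 980.0 CPM in the high range against 303, 400.0 and 293 in the rest (log2 1.72). The 3 genes of the membrane ring, Atp5g1, Atp5g2 and Atp5g3, encode the same mature protein from different precursors, and all were called higher. Atp5g3 had 1089, 1193 and 1040 CPM against 268, 398 and 241, and 232 at baseline (log2 1.80, SE 0.185, edgeR adjusted p = 2.65e-06). Atp5g1 and Atp5g2 had log2 differences of 1.64 and 1.30. Atp5e, the epsilon subunit of the central stalk, had the least difference, at 1334, 979 and 1224 CPM against 859, 605 and 870, and its baseline value of 885 CPM was close to the plateau high value (log2 0.51, edgeR adjusted p = 0.029; 0.19 without the library block and 0.34 without the plateau library).

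Of the 13 assembly factors, 9 were called higher, 1 lower and 3 (Ndufaf3, Ndufaf8 and Sdhaf2) neither. Ndufaf4, which acts early in complex I assembly, had 86.4, 90.3 and 98.3 CPM in the high range against 13.3, 33.3 and 24.5 in the rest (log2 1.95, SE 0.223, edgeR adjusted p = 7.56e-06). Ndufaf7, which methylates a core subunit of complex I during assembly, had 4.87, 10.6 and 23.8 CPM against 17.3, 22.4 and 44.4. It was lower in each library, although its high-range value at resolution lay above the rest at peak and plateau (log2 -1.40, SE 0.260, edgeR adjusted p = 0.00051). Cox7a2l, a factor of respiratory supercomplexes, had 459, 608 and 325 CPM against 210.4, 256 and 236, with 306 at baseline (log2 0.87; edgeR adjusted p 0.0028, and 0.088 without the plateau library).

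**Figure D4:**
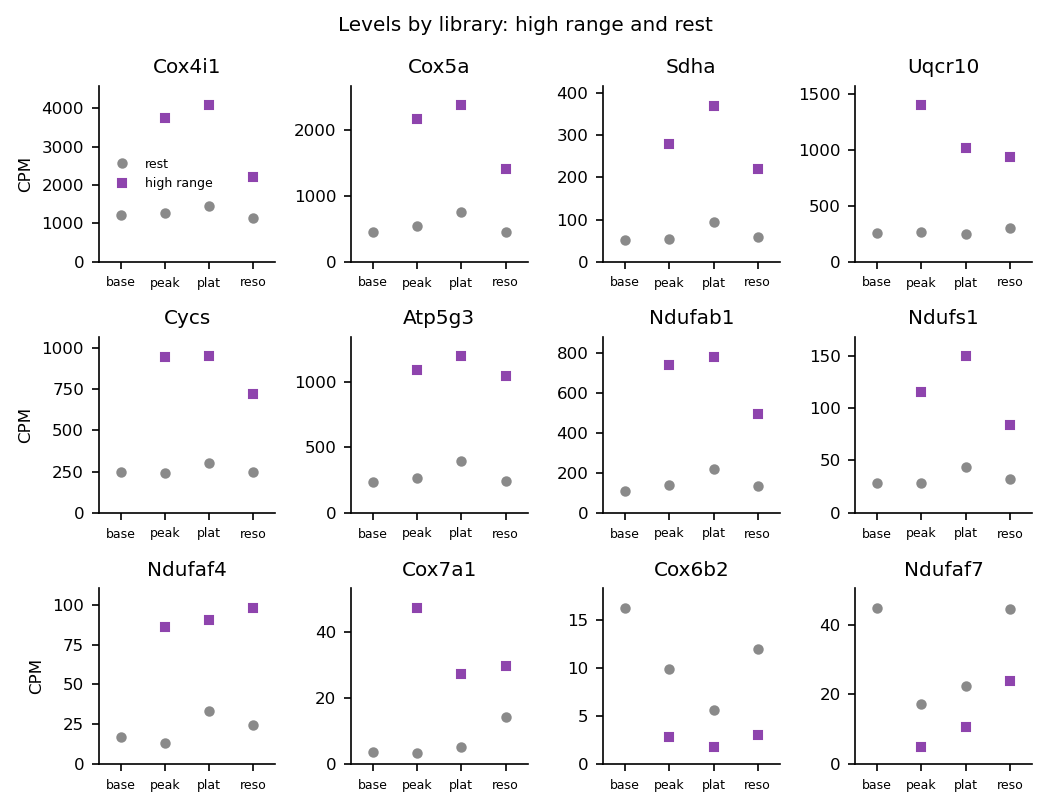
Levels in CPM (y axis, from 0, with a scale per panel) of 12 of the genes in the 4 libraries (x axis: baseline, peak, plateau, resolution). Squares are the summed high range and circles the summed remaining barcodes, 1 value each with no replicate; squares lie above circles in every library for 10 genes and below them for Cox6b2 and Ndufaf7.

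The balance between complexes shifted little. Complex II made up 2.17%, 2.90% and 2.35% of the UMIs of the 95 genes in the high range against 1.65%, 2.33% and 1.64% in the rest, and complex I accessory subunits 23.6%, 22.7% and 24.1% against 26.0%, 25.01% and 26.6%. Complex IV took 28.9%, 27.6% and 28.0% against 27.3%, 26.0% and 27.0%, and complex V 27.1%, 27.8% and 27.9% against 29.2%, 29.3% and 27.7%. Complex III took 11.7%, 11.2% and 11.0% against 10.0%, 9.95% and 10.5%, and the complex I core 3.66%, 4.45% and 3.76% against 3.10%, 4.01% and 3.37%. The complex I core, complexes II, III and IV and Cycs thus held a larger share in the high range of each library. The complex I accessory group and the assembly factors held a smaller one, and complex V changed direction between libraries. These shares were not tested.

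Promoter sequence is one feature that the choice of the genes did not use. All 95 matched a RefSeq gene (GRCm38.p6) and 80 had a promoter, taken from 250 bases before to 50 after the start. Motifs known from nuclear genes of mitochondria were searched on both strands: GCGCANGCG for NRF1, CCGGAAG for GABP, AAGATGGCG for YY1 and TNAAGGTCA for the ERR receptors. A GABP motif can end in the letters that begin a YY1 motif. They were chosen after the values were seen. Of the 80 genes, 5 have 2 promoters in the table, and a gene was counted when either held the motif. The NRF1 motif was found for 31.25% of the 80 genes, against 15.3% of 9762 genes with at least 100 UMIs and 7.03% of all 27025 genes of the table. For GABP the shares were 27.5%, 20.5% and 9.93%, for YY1 10%, 3.68% and 1.64%, and for ERR 3.75%, 0.912% and 1.43%. Genes with an NRF1 motif had a median log2 difference of 1.24 and those without it 1.15. For GABP the medians were 1.09 with and 1.26 without the motif, for YY1 1.10 and 1.22, and for ERR, with 3 genes, 1.38 and 1.21. All 25 genes with the NRF1 motif were among the 73 called higher that have a promoter, and 0 were among the 7 others. Of those 7, 2 held a GABP motif, 1 a YY1 motif and 0 an ERR motif. No link between a motif and the difference was tested. A match is a match of letters alone. The promoter of Sdha, the complex II gene with the largest rise, held 3 NRF1 motifs, that of Atp5g3, the complex V gene with the largest rise, held 1 NRF1 and 1 ERR motif, and that of Ndufs3, a core subunit of complex I, held 2 GABP motifs. These are printed 5′ to 3′ on the minus strand from 250 bases before to 30 after the start, with motif matches of either strand in capitals (Sdha chr13:74350211-74350490, Atp5g3 chr2:73911297-73911576, Ndufs3 chr2:90904692-90904971):
Sdha: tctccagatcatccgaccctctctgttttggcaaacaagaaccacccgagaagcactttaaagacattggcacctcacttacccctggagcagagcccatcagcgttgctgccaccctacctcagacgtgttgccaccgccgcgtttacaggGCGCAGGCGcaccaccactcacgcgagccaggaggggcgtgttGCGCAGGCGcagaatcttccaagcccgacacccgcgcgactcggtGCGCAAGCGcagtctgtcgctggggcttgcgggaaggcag
Atp5g3: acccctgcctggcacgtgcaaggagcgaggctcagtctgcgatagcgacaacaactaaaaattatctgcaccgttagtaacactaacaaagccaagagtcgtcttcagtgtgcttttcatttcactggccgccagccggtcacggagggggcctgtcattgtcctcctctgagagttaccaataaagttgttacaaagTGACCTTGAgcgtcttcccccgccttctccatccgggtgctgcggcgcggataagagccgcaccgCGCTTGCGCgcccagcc
Ndufs3: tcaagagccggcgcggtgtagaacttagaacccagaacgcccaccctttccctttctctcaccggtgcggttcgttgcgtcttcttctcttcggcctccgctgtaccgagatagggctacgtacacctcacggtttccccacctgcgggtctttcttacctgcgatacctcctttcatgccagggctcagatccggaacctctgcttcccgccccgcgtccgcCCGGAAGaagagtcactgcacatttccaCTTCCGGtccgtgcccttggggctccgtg

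The factors that act on such motifs did not rise together. Of 16 regulators of mitochondrial genes, 6 were called higher and 3 lower, with a median log2 of -0.06. Over all genes tested the shares were 17.6% higher and 33.5% lower. Ppargc1b, a coactivator of ERR receptors, had 73.5, 83.7 and 65.5 CPM in the high range against 3.28, 11.7 and 9.83 in the rest (log2 3.32, SE 0.297, edgeR adjusted p = 7.21e-07). Esrra, which encodes ERR alpha, had 46.7, 45.5 and 32.8 CPM against 14.6, 20.3 and 19.2 (log2 1.20), and Nrf1 was lower (log2 -0.71, edgeR adjusted p = 0.022). These 3 were named after their values were seen. Yy1 had a log2 of -0.35 and was not called. Pparg, a nuclear receptor of fat and macrophage programs, had 0 UMIs in the high range of all 3 libraries, against 4.14, 4.57 and 11.6 CPM in the rest.

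Other parts of the mitochondrion were higher as well, where 17.6% of all genes tested were called higher and 33.5% lower. All 13 subunits encoded in mitochondrial DNA were called higher (median log2 0.98), as were 17 of 18 citric acid cycle genes (median 1.42) and 64 of 78 mitochondrial ribosomal protein genes (median 0.83), where Mrpl33 was the 1 called lower (log2 -1.54). The mitochondrial DNA-encoded subunits made up 3.70%, 4.69% and 3.28% of gene UMIs in the high range against 1.67%, 2.30% and 1.48% in the rest. The nuclear set thus had a larger ratio than the mitochondrial set at peak (2.70 against 2.22) and plateau (2.53 against 2.04), and at resolution they were close (2.18 against 2.22). The 10% limit on mitochondrial UMIs bounds the mitochondrial share itself. It removed 17 barcodes at peak and 36 at plateau with at least 2% Acp5+Ctsk. How far that limit changed the mitochondrial ratios was not tested. Of 30 assembly factors with other names, 21 were called higher and 1 lower. Of 14 carriers and related genes 10 were called higher, among them Ckb, the brain-type creatine kinase (log2 3.61), whose ratio was 38.4 at peak and 1.74 at resolution. Among 8 genes of mitochondrial peroxide and superoxide defence, 5 were called higher, and Prdx5, a peroxiredoxin, was lower (log2 -2.38).

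Outside the mitochondrion the lists gave different counts, and no difference between lists was tested. Over all genes tested, 17.6% were called higher and 33.5% lower. Of 17 glycolysis genes 3 were called higher, near the share of all genes, and 9 lower (median log2 -0.51). Aldoa, an aldolase, was among the higher ones, at 1859, 1816 and 2061 CPM against 724, 867 and 834 (log2 1.15). Aldoc, an aldolase outside the list, was also called higher (log2 2.24). Both were named after their values were seen. Pfkfb3, which makes an activator of phosphofructokinase, had 3.37, 3.00 and 5.96 CPM against 47.6, 29.5 and 15.8 (log2 -3.52). Gapdh was lower with a log2 of -0.46 and lost that call in 8 of its alternatives. Of 16 vacuolar ATPase genes 12 were called higher and 1 lower (median log2 1.95), and Atp6v0d2, the osteoclast form of subunit d, had the largest difference (log2 5.07). Of 87 cytosolic ribosomal protein genes 9 were called higher and 1 lower (median log2 0.13). Of the 14 marker lists other than the osteoclast one, 11 had a lower summed level in the high range of each of the 3 libraries. Summed fibroblast markers were 17.9 to 55.4 CPM against 2392 to 8032 in the rest of the 3 libraries, summed neutrophil markers 2.98 to 15.5 against 463 to 1648, and summed tissue macrophage markers 36.9 to 140.0 against 644 to 5524. Summed T-cell markers were higher in each library, at 5.96 to 13.5 CPM against 3.40 to 6.63. These high-range sums came from 3, 3 and 1 of the 5 markers, with 72 UMIs at peak, 111 at plateau and only 2 at resolution. Erythroid markers differed in direction between libraries. Cycling markers were higher in the high range at peak (240.0 against 120.1 CPM) and resolution (769 against 233) and lower at plateau (137 against 330.1). Their part in the difference was not tested.

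Within the remaining barcodes the score also varied with the markers a barcode carried. Barcodes were pooled when a marker list made up at least 0.5% of their gene UMIs, the ranges may overlap, and the limit was set after the data were seen. The 8 osteoclast markers other than Acp5 and Ctsk reached that limit in 59 plateau barcodes of the rest, with a pooled score of 5.84%, and in under 20 barcodes at every other stage. Those 59 may be among the barcodes of 0.5% to 2% Acp5+Ctsk described above. Tissue macrophage markers gave 2.71% at baseline, 2.37% at peak, 2.15% at plateau and 2.43% at resolution, and classical monocyte markers 2.41%, 2.51%, 2.11% and 2.48%. Fibroblast markers gave 2.12%, 2.23%, 2.24% and 1.82%, and neutrophil markers 1.90% at baseline and 2.10% at peak. Among ranges of at least 20 barcodes, the highest pooled score with the other lists was 2.73%, with cycling markers at resolution (23 barcodes).

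The same ranges gave levels for the 4 genes called lower and for Cox7a1. Ndufa4l2 had 46.6, 155, 63.7 and 139.7 CPM in barcodes with fibroblast markers, from baseline to resolution, against 0 to 0.263 CPM in those with classical monocyte markers and 0.824 to 12.99 in those with tissue macrophage markers. Cox6b2 had 7.40 to 22.4 CPM with classical monocyte markers and 2.75 to 8.73 with tissue macrophage markers. Its highest levels were 32.5 CPM with neutrophil markers at baseline (54 UMIs) and 27.1 with cycling markers at resolution (7 UMIs). Cox6a2 had 2.06 to 11.6 CPM with tissue macrophage markers, highest at baseline (21 UMIs), 0 to 0.527 with classical monocyte markers and 0 with fibroblast markers. Cox7a1, which was highest in the high range, had 9.06 to 22.1 CPM in barcodes with tissue macrophage markers and 0 to 1.54 with classical monocyte markers, so that it was not limited to the high range. Ndufaf7 had 15.3 to 48.3 CPM with tissue macrophage markers and 20.5 to 45.9 with classical monocyte markers. These are single summed values, with no replicate.

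Between stages, each with 1 library and so with no test, the score had the same order as the share of high-range barcodes. Over all kept barcodes the pooled score was 2.48% at baseline, 2.96% at peak, 3.88% at plateau and 2.52% at resolution. Baseline and resolution were close. Their order was reversed in the means over barcodes and with mitochondrial, ribosomal, Acp5 and Ctsk UMIs left out of the denominator. Past 1.5-fold, 9 of the 95 were higher and 3 lower at peak against baseline, where 13.6% of all genes were higher and 22.8% lower. At plateau against peak 43 were higher and 2 lower (all genes 31.4% and 9.36%), and at resolution against plateau 4 were higher and 50 lower (22.4% and 18.4%). At resolution against baseline 5 were higher and 1 lower (23.8% and 10.5%). The median log2 ratios of the set were 0.28, 0.50, -0.62 and 0.08, beside -0.12, 0.29, 0.05 and 0.18 over all genes. With TMM scaling the all-gene medians were -0.01, 0.06, -0.00 and 0.01, and the set had 0.39, 0.27, -0.68 and -0.09, so that the sign of resolution against baseline depended on the scaling. With TMM, 21 genes rather than 9 were higher past 1.5-fold at peak against baseline (all genes 16.6%), and 24 rather than 43 at plateau against peak (all genes 20.1%). Neighbouring comparisons share a library.

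With the high range left out, little of this remained. In the rest alone 1 gene was higher and 3 lower at peak against baseline (all genes 12% and 24.5%), 12 and 3 at plateau against peak (31.7% and 5.85%), and 12 and 10 at resolution against plateau (18.1% and 15.7%). The medians of the set were 0.05, 0.13 and -0.06, and 0.07 for resolution against baseline. Sdha, for example, had 52.4, 74.6, 191 and 62.0 CPM over all barcodes from baseline to resolution, and 52.4, 54.2, 95.3 and 60.0 outside the high range. Cox5a had 455, 699, 1330 and 471 CPM over all barcodes and 455, 552, 766 and 459 outside the range. Plateau was the highest stage in both genes, with and without the high range.

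**Figure D5:**
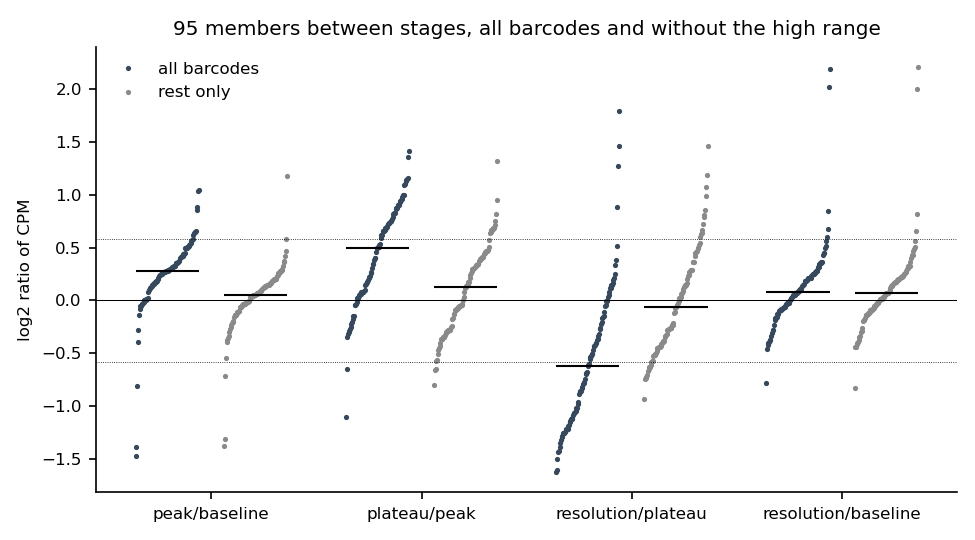
Log2 ratio of CPM between 2 stages (y axis) for each of the 95 genes (points, sorted within each column), over all barcodes (dark) and without the high range (grey), for 4 stage comparisons (x axis). Bars are medians and dotted lines mark 1.5-fold; the dark medians are 0.28, 0.50, -0.62 and 0.08, and the grey ones 0.05, 0.13, -0.06 and 0.07.

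A few genes differed between stages outside the high range too. Ndufa4l2 had 4.43, 10.1, 9.03 and 20.6 CPM in the rest from baseline to resolution, and Cox7a1 3.51, 3.28, 5.14 and 14.2, so that both were highest at resolution. Ndufaf7 had 44.8, 17.3, 22.4 and 44.4 CPM there, high at baseline and resolution and low at peak and plateau, and Cox6b2 had 16.2, 9.89, 5.66 and 11.96. Ndufs4, a complex I subunit that stabilises the NADH-binding arm, was the 1 gene lower past 1.5-fold at resolution against baseline, at 56.1 against 99.3 CPM in the rest. Ndufaf4 had 13.3 CPM at peak and 33.3 at plateau in the rest, the highest ratio of the set there (log2 1.32).

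Stages were also compared within the high range alone. At plateau against peak 1 gene (Ndufaf7) was higher past 1.5-fold and 5 lower (Ndufa5, Ndufb2, Cox6b2, Cox7a1 and Ndufa4l2), where all genes gave 10.9% and 12.2%. At resolution against plateau 9 were higher and 21 lower (38.6% and 15.9%), over 21 barcodes at resolution. Ndufa4l2 is in both counts with 0 UMIs on either side, so that its ratio comes from the 0.5 added UMIs alone and carries no direction. The set's medians were -0.13 and -0.19, beside 0.07 and 0.30 over all genes.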

How the data were processed

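Gene and antibody UMIs were counted in the same barcodes (CITE-seq, 10x Genomics 3' chemistry) in 4 libraries. The authors' deposited matrices hold raw UMI counts per gene and barcode, on the mm10 build. Cell Ranger 6.1.2 and Seurat 4.4.0 are named in the submitters' processing notes, without their roles. Which barcodes were filtered before deposit, and how reads shared with near-identical gene copies or overlapping genes were counted, are not given in the sources used here, so genes with such copies are uncertain.

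Members, lists, filters and tests were chosen with earlier results of these data known. Barcodes needed 300 genes and at most 10% mitochondrial UMIs. No doublet caller was run; an alternative left out barcodes in which each CD45 antibody reached 10 UMIs. Pairs of libraries shared 27 barcode sequences in all. Summed counts of genes with at least 100 UMIs were tested with edgeR 4.0.16 (R 4.3.3; TMM, quasi-likelihood, library block, Benjamini-Hochberg), in the 3 libraries with at least 20 high-range barcodes; Acp5 and Ctsk, which set the range, stayed in the fit and were not counted. The test was checked on simulated counts of 12419 genes. It recovered 29% of the genes changed by log2 1 and 92% of those changed by log2 2, with 1 false call. The simulated libraries shared the same profile and a fixed dispersion, so differences between stages were not part of that check. DESeq2 1.42.0 was an alternative. Stage ratios have 0.5 UMIs added. Levels are CPM; since 3' counting gives 1 tag per molecule, gene length was not corrected. Python 3.11.15 was used for sums and scores, and exact (Clopper-Pearson) 95% intervals were computed with scipy 1.17.1. Whether the mice behind a library were pooled is not given, so p-values measure the spread between libraries that also differ in stage. Named genes were, per role group, the highest level and the largest higher and lower called fold; per stage contrast, the 3 highest and 3 lowest ratios; all isoform families; and per other list the largest fold and highest level. Ribosomal protein kinases and binding proteins were left out of the ribosomal list.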

Additional observations from a re-analysis of the deposited data

How the results depend on the processing

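Leaving out 1 library at a time, 74 to 89 of the 95 genes were called higher and 3 lower, and the score difference was 3.40 to 4.12 points; 74 was without plateau. The 12 lost there were Atp5e, Atp5h, Cox7a2l, Ndufa1, Ndufa11, Ndufa13, Ndufa2, Ndufb11, Ndufb7, Ndufs8, Ndufv3 and Uqcrh. Without peak, Ndufaf2, Ndufv3 and Sdhaf3 were lost. Without the replicate block for the library, 75 were called higher; the 11 lost were Atp5e, Atp5h, Ndufa1, Ndufa13, Ndufa2, Ndufaf2, Ndufb2, Ndufb7, Ndufs8, Ndufv3 and Uqcrh. Every other alternative fitted gave 82 to 89 of the 95 higher, apart from the 82 structural subunits taken alone, with 77. Between 5000 and 20000 UMIs, 1 gene, Ndufaf7, was called lower. Cox6b2, Cox6a2 and Ndufa4l2 were not called there (edgeR adjusted p 0.061, 0.26 and 0.064). That setting, a 5% mitochondrial limit and a 5% Acp5+Ctsk limit left 2 libraries, as the resolution high range fell under 20 barcodes. Limiting the high range to at least 5000 UMIs, an alternative added after seeing the data, left 86 higher, the same genes.

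Scores from baseline to resolution were 2.40%, 2.52%, 2.90% and 2.36% as means over barcodes, and pooled 2.42%, 2.91%, 3.80% and 2.46% over structural subunits. They were 3.09%, 3.67%, 4.81% and 3.02% with mitochondrial, ribosomal, Acp5 and Ctsk UMIs left out of the denominator. As means over barcodes and with that denominator, resolution lay below baseline. With a 5% mitochondrial limit they were 2.88%, 3.40% and 2.52% from peak on, with no limit 2.94%, 3.88% and 2.51%, and at plateau 3.84% without barcodes with both CD45 antibodies. With TMM, 21 genes were higher at peak against baseline, 24 at plateau against peak, and 3 higher and 3 lower at resolution against baseline. Without the high range the counts were 1 and 12 higher for the first 2 contrasts, and 12 higher and 10 lower for resolution against plateau. With the 5% mitochondrial limit 1 was lower at plateau against peak, and among structural subunits 2 were higher at resolution against baseline. The cause of these shifts was not tested. Depth limits genes with few UMIs in the 21 high-range barcodes at resolution, where 3 counts are 8.94 CPM.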
